A study of Mus musculus with 18 samples.

Results

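H3K9me3, the trimethylated lysine 9 of histone H3 that marks silenced chromatin, was called in 768 regions that met 3 conditions. Each was called in wild-type ES3 cells and overlapped no region of the Trim28 knockout, overlapped no KAP1 (TRIM28) peak of wild-type cells, and lay within 5 kb of a gene start. They are 768 of 19057 wild-type-only regions and of 37002 wild-type regions in all. Within 5 kb of a start there were 807 wild-type-only regions, and 39 of these overlapped a KAP1 peak and were left aside. Loss of the call, absence of KAP1 and closeness to a start therefore define these regions and are not findings about them.

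TRIM28 is a corepressor that does not itself recognise DNA sequences. KRAB zinc finger proteins recognise the target sequence and dock it there, and it brings in SETDB1, which writes H3K9me3, and HP1, which reads it. In embryonic stem cells it is best known for silencing endogenous retroviruses and for keeping the mark at imprinted control regions. H3K9me3 at a gene start usually goes with a silent gene.

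The study compared cells with and without TRIM28. ES3 cells are C57BL/6 mouse embryonic stem cells, grown on gelatin with serum and leukaemia inhibitory factor. Wild-type cells were cultured for 4 days, and knockout cells were taken 4 days after Cre recombinase was induced by 4-hydroxytamoxifen (4-OHT). Mouse embryonic fibroblasts (MEFs) of the same strain were compared at 5 days, a later time that the labels tie to their slower division. The labels do not say whether the wild-type cells also received 4-OHT. According to them the mark was weaker but still present in knockout ES3 cells on day 4. A missing call is thus the loss of a call and not of all H3K9me3. The H3K9me3 antibody was Abcam ab8898. RNA duplicates were pooled before extraction and each condition is 1 library or 1 region list, so no difference has a replicate check. Read depth is unknown for every list and table.

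Among the 768 regions, 44 covered the start of a gene. The bases before some of these starts are shown because the mark was called over these starts in wild-type cells alone. The 6 genes with the largest ES3 RNA ratios among those starts were Ly6a, Cml2, 1700029P11Rik, Cd59a, Ly6c1 and Cyp21a1, and RefSeq sequences were found for Cml2 (there named Nat8f2), 1700029P11Rik, Cd59a and Ly6c1. Zfp629, which has the widest region over a start, and Dazl, a germ-cell gene with a CpG-rich promoter, were added after their values were seen. Each run holds the 250 bases before the RefSeq start in build GRCm38.p6, with each CG in capitals.

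Cml2: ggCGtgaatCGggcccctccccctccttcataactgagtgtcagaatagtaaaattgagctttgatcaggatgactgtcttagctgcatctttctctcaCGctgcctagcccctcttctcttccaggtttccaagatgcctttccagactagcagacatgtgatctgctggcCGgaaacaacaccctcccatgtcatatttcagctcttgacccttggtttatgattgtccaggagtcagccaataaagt
1700029P11Rik: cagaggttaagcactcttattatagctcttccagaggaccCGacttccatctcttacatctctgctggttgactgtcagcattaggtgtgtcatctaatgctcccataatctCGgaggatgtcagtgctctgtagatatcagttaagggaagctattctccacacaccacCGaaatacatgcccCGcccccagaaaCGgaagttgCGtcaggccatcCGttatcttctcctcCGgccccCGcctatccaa
Cd59a: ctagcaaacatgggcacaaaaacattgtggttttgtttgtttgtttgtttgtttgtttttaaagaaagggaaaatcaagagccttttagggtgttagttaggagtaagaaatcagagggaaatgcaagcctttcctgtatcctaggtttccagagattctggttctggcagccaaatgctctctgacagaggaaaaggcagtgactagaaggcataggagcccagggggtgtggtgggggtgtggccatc
Ly6c1: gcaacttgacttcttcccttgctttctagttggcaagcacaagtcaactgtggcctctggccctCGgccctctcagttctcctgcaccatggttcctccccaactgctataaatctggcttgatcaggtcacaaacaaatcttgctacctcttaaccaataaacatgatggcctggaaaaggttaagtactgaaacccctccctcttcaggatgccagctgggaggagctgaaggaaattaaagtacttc
Zfp629: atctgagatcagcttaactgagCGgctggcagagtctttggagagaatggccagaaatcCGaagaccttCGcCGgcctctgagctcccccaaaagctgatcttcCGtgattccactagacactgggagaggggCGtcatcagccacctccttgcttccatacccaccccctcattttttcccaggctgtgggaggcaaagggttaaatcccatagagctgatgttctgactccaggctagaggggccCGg
Dazl: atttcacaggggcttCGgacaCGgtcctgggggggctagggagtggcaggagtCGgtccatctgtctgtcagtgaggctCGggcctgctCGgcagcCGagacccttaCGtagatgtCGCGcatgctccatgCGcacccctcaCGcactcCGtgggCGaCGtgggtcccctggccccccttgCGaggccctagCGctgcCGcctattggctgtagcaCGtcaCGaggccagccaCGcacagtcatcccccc

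These runs are chr6:85869138-85869387 (minus strand), chr15:81980290-81980539 (plus), chr2:104095551-104095800 (plus), chr15:75048838-75049087 (minus), chr7:127615273-127615522 (minus) and chr17:50293621-50293870 (minus). Cd59a had no CG among the 250 bases, Ly6c1 1, Cml2 4, Zfp629 7, 1700029P11Rik 9 and Dazl 20. Over the most upstream promoter of 27025 RefSeq genes, the median was 6 CGs and the quartiles 2 and 16. Dazl was thus above the upper quartile and both Ly6c1 and Cd59a below the lower one. TGCCGC, the methylated motif that the imprinting factor ZFP57 binds, occurred on either strand in the run of Dazl and in 8.57% of all 27025 promoters. The GC box GGGCGG occurred in 1700029P11Rik (32.96% of all), the CCAAT box in Cml2, Ly6c1 and Dazl (34.53%), and TATAAA in Ly6c1 (12.98%). CACGTG, the E-box (6.04%), was in none of the 6 runs. The H3K9me3 regions are in mm9 coordinates, so where a region's edges fall on these bases is not established. Of the 721 gene symbols with a region within 5 kb, 560 (77.67%) had a RefSeq promoter, below the 80% set as a minimum, so promoter composition was not compared with other genes.

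The regions thinned out toward the start. By the distance from the nearest edge of the region to the nearest start, 44 (5.73%) covered it, 105 lay up to 1 kb away, 124 from 1 to 2 kb, 144 from 2 to 3 kb, 155 from 3 to 4 kb and 196 from 4 to 5 kb away. At the limit of 5 kb, the last regions inside were 4989, 4999 and 5000 bp from a start and the first outside were 5022, 5026 and 5031 bp. Wild-type regions that overlapped a knockout region are called retained here. Of those within 5 kb and without a KAP1 peak, 118 of 821 (14.37%) covered a start, a larger share. A wide region is likelier both to overlap a knockout region and to cover a start. Retained regions over a start had a median width of 2970 bp, against 1048 bp for the 44. The difference in share is therefore not separate from width. Upstream of the nearest start lay 448 of the 768 regions, and 276 lay downstream. Parts of 279 lay inside the span of that gene, so 489 were outside it.

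**Figure D1:**
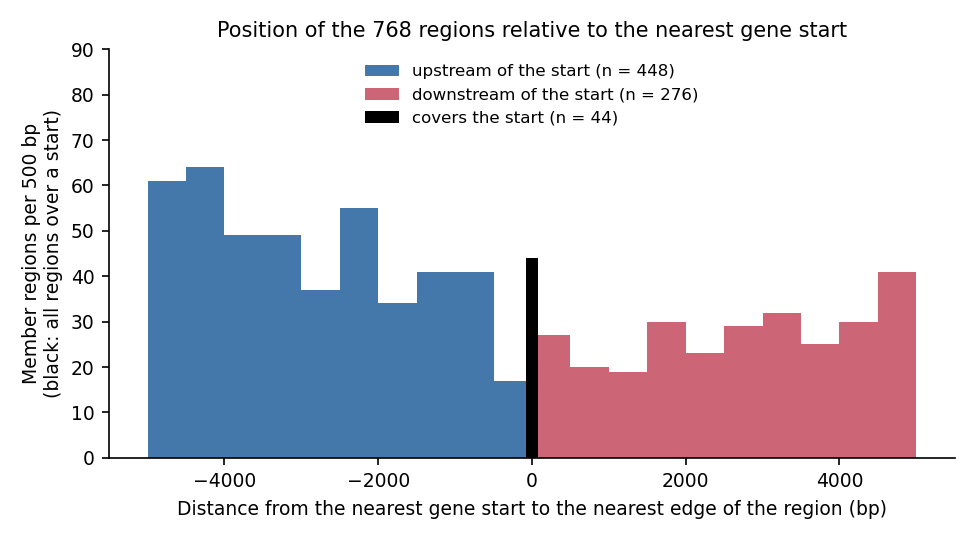
Number of the 768 regions in 500 bp steps of distance from the nearest gene start (x axis, bp; negative is upstream), with the regions over a start as the black bar. On the upstream side the counts per step are higher far from the start than next to it, and 448 regions lie upstream against 276 downstream.

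Most were narrow. Their widths ran from 38 to 5793 bp with a median of 710 bp (quartiles 465 and 1188 bp), and 255 (33.2%) were 1000 bp or wider. The 17973 wild-type-only regions without KAP1 that lay farther from starts had a median of 574 bp, with 21.5% at 1000 bp or more. The 316 wild-type-only regions with a KAP1 peak had a median of 1286 bp and 61.7%, and the 821 retained regions near starts had 1115 bp and 54.1%. By distance, the regions over a start had the highest median width, 1048 bp against 783 bp up to 1 kb away and 667.5 bp at 4 to 5 kb. The order of the classes is a description of 1 list per condition. Wider regions are likelier to cover a start or to overlap a KAP1 peak or a knockout region. These width differences thus follow in part from how the classes are defined.

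**Figure D2:**
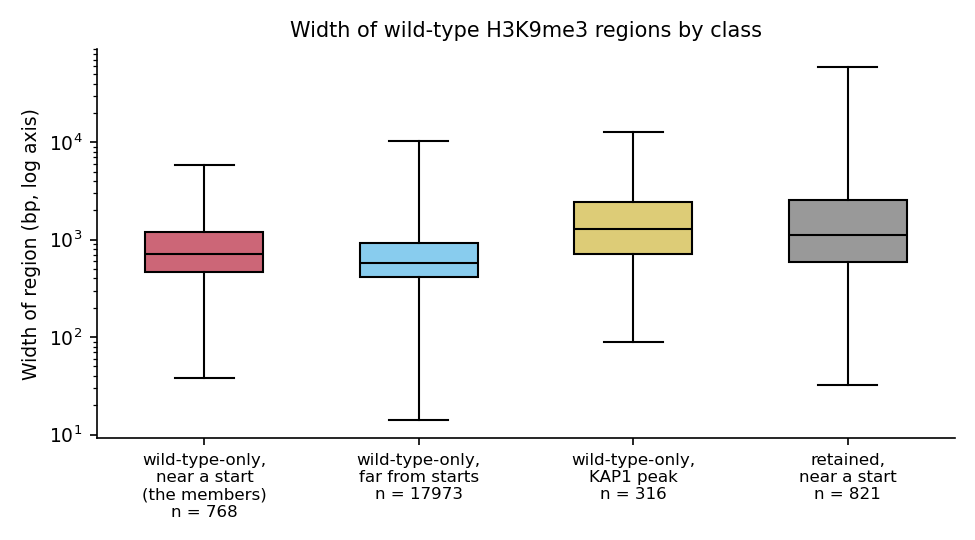
Width of wild-type H3K9me3 regions (y axis, bp, log axis) in 4 classes; boxes give the quartiles and median, and whiskers the narrowest and widest region. The 768 regions near starts (median 710 bp) sit between the regions far from starts (574 bp) and those with a KAP1 peak (1286 bp).

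The widest, 5793 bp (chr17:32228985-32234777, mm9), lay inside Pdxk-ps, a pseudogene of pyridoxal kinase, and began 2454 bp downstream of its start. The next were at Dut, which encodes dUTPase (4467 bp, inside the gene), Spin1, a reader of histone methylation (4138 bp, 1515 bp upstream), Zfp629 (4136 bp, over the start) and Mep1b, a meprin metalloprotease subunit (4029 bp, 1729 bp upstream). RNA of these genes differed: in wild type and then knockout, Dut stood at 30.3 and 31.9 RPKM (reads per kilobase of transcript, scaled to library size) and Spin1 at 17.2 and 25.2 RPKM, while Pdxk-ps stayed under 0.5 RPKM in both. Several regions could cluster at 1 start. Of the 721 symbols with a region within 5 kb, 629 had 1, 79 had 2, 12 had 3, and Cyp2c67, a cytochrome P450 of a tandem gene cluster, had 4. At Cyp2c67 they lay 2788 bp downstream and 497, 2898 and 4216 bp upstream of the start, with widths of 503, 459, 515 and 821 bp. The 12 symbols with 3 regions included, first by name, Adam5, a sperm metalloprotease gene, C4b, which encodes complement C4, Catsper3, a sperm calcium channel subunit, and 8430426H19Rik. Activity varied among them: Adam5 and Catsper3 were listed at 0 in wild type, C4b stayed under 0.3 RPKM, and 8430426H19Rik stood at 2.06 and 3.10 RPKM. Dut and Gstp1 (98.6 and 103.6 RPKM), also with 3 regions each, were well expressed.

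KAP1 peaks over input were absent from these regions by choice. The list of 2382 KAP1 peaks called over knockout chromatin comes from the same wild-type precipitate, so its overlap is largely set by that choice and is only described. It overlapped 2 of the 768 regions (0.26%, Wilson 95% interval 0.071 to 0.944%, counting error only). One covers the start of Cml2 (2723 bp), and the other lies at Gstp2 (1985 bp), a glutathione S-transferase gene. Peaks called with the KAP1 antibody in knockout chromatin overlapped 4 regions, next to 4930519G04Rik, Ppia, H2afv and Dnajc21. A KAP1 peak lay within 1 kb of 12 regions (1.56%, 0.896 to 2.71%) and within 10 kb of 52 (6.77%, 5.20 to 8.77%). For the wild-type-only regions farther from starts the shares were 0.657% and 4.53% (4.23 to 4.84%), and for the retained regions near starts 0.853% and 6.09% (4.65 to 7.94%). The 10 kb share of the 768 regions was thus above that of the far class and had an interval overlapping that of the retained class. The far class was set apart by distance to starts. Its lower share therefore cannot be told apart from a nearness of KAP1 peaks to starts. A knockout H3K9me3 region lay within 1 kb of 67 of the 768 (8.72%), against 9.43% of the far class.

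One chromosome held far more of the regions than its share of starts. Chromosome 1 carried 139 of the 768 (18.1%) with 5.89% of the gene starts. Above 70 Mb, a split chosen after the values were seen, there were 123 regions over 757 starts, or 162.5 per 1000 starts, against 37.6 per 1000 outside chromosome 1 and 15.3 to 62.0 on the other single chromosomes. In this stretch the whole H3K9me3 call was lower in the knockout, with 1570 regions against 2954 in wild type (a ratio of 0.532). On chromosomes 6 and 14 the ratio was 2.09 and 2.03, and elsewhere, with the lower part of chromosome 1 included, 0.72 to 1.08. RNA differed along the genome too. Over all measured genes the median log2 ratio of knockout to wild type was -0.15 on distal chromosome 1, 0.32 on proximal chromosome 1 and 0.59 on chromosome 14, and -0.07 to 0.27 on the others. DNA copy number was not measured and the input libraries were not analysed here, so the part of DNA dosage in these calls was not tested. Values without chromosome 1 are given where they differ.

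**Figure D3:**
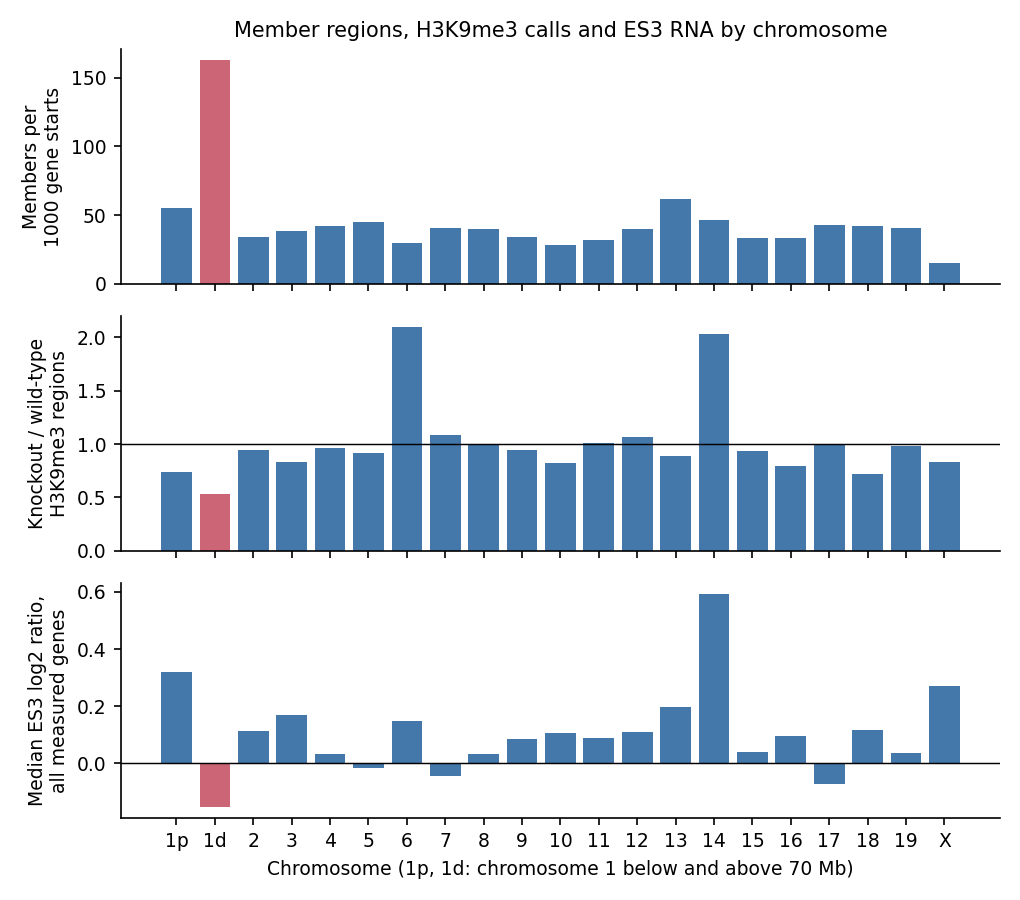
By chromosome (x axis; 1p and 1d are chromosome 1 below and above 70 Mb): the regions per 1000 gene starts (top), knockout over wild-type H3K9me3 regions (middle) and the median ES3 log2 ratio of all measured genes (bottom). Distal chromosome 1 is at 162.5, 0.532 and -0.15, and chromosome 14 is high in the lower panels.

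Genes beside the regions were less active in wild-type ES3 cells than genes at large. Trim28 itself, at 1051 RPKM, dropped to 37.2 RPKM with the knockout. In what follows, a pair of RPKM values gives the wild-type library first and the knockout library after it. Of the 721 symbols, 319 (44.2%, 40.7 to 47.9%) stood at 1 RPKM or more in wild type, against 60.7% of all 17818 symbols, and their median was 0.517 RPKM against 2.49 RPKM. Over the 46 symbols whose start a region covered, 7 (15.2%, 7.57 to 28.2%) reached 1 RPKM, with a median of 0.209 RPKM. For a region up to 1 kb away the share was 34.8%, for 1 to 2 kb 54.6% and for 2 to 5 kb 46.9%. The share was lowest at covered starts, but its interval overlaps that up to 1 kb away (26.7 to 43.9%), and those of the last pair overlap too. Genes with only a retained region nearby were lower still than the 721, with 193 of 528 (36.6%) at 1 RPKM or more.

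Without TRIM28, more of these genes were higher than lower. A gene was called measured at 1 RPKM or more in either library, and higher or lower at 2-fold on log2((knockout + 1)/(wild type + 1)), which understates the change of low genes. Of the 721 symbols 398 were measured. Of these 85 (21.4%, 17.6 to 25.6%) were higher, against 12.5% of all 12024 measured genes, and 13 (3.27%) were lower, against 3.18%. The median log2 ratio was 0.26 (95% interval 0.16 to 0.41 by order statistics over genes, which are not replicates) against 0.08 for all genes. Genes with only a retained region nearby had at least as large a share on this measure. Of 257 measured, 71 were higher (27.6%, 22.5 to 33.4%, an interval that overlaps that of the 398), with a median of 0.47. A larger share of higher genes than at large was thus not particular to the lost calls. The measured set depends on the outcome. Of the 398, 79 were under 1 RPKM in wild type and entered only through the knockout, and 45 of them were called higher. Among the 257, 64 entered in that way. Among genes at 1 RPKM or more in wild type, 40 of 319 (12.5%, 9.35 to 16.6%) were higher against 8.32% of all such genes, and the median was 0.04 against 0.01. Leaving out chromosome 1, 72 of 335 were higher (21.5%, against 12.5% of all genes there) and 7 lower (2.09%, against 3.05%). No test of the difference can be made with 1 library per condition.

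By distance, the counts of higher genes rest on how genes enter the measured set. At covered starts 7 of 20 measured genes were higher (35.0%, 18.1 to 56.7%), but 13 of the 20, with all 7 higher genes among them, passed the filter only through the knockout. Among genes at 1 RPKM or more in wild type, 0 of 7 at covered starts were higher (0 to 35.4%), 8 of 40 with the region up to 1 kb away (20.0%, with an upper limit of 34.8%), 8 of 65 at 1 to 2 kb (12.3%, 6.37 to 22.5%) and 24 of 207 at 2 to 5 kb (11.6%, 7.92 to 16.7%). All these intervals overlap, so no order by distance is read from them. Of the 7 symbols at covered starts, NR_026896 and Mgat4e share 1 start and are not independent. Under the same filter, 28 of 193 genes near a retained region and none of the 768 were higher (14.5%, 10.2 to 20.2%), an interval that overlaps that of the 319 genes beside the lost calls. Primitive endoderm markers (the extraembryonic yolk sac lineage) summed to 65.9 and 1432 RPKM, with 11 of 12 called higher and Afp and Ttr listed at 0 in wild type. Trophectoderm markers summed to 13.4 and 356 RPKM, fibroblast markers to 3.06 and 27.9 RPKM (Postn and Twist2 listed at 0 in wild type) and the 8 stem cell markers to 2081 and 1060 RPKM, all 8 at 1 RPKM or more in both. Endothelial markers summed to 17.1 and 22.0 RPKM, and macrophage markers to 172.7 and 90.8 RPKM, with Ptprc, Csf1r and Lyz2 listed at 0 in wild type. Of the 24 genes on the primitive endoderm list 0 had a region within 5 kb (0 to 13.8%), an interval that includes the 4.05% of all symbols. The part of that shift in the RNA of the 721 genes was not tested, and in bulk RNA fewer cells of a type and less RNA per cell cannot be told apart.

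**Figure D4:**
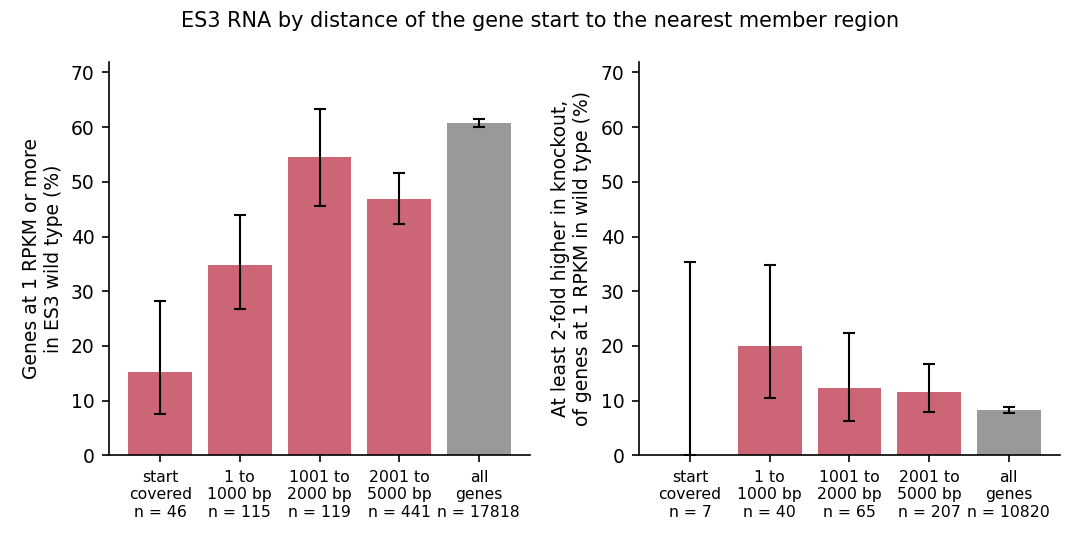
Left, the percentage of genes that reach 1 RPKM in wild-type ES3 cells. Right, the percentage of those genes called higher without TRIM28. Both are by distance of the start to the nearest region; bars are shares and lines Wilson 95% intervals, which cover counting error only. Covered starts have the lowest share on the left (15.2%, all genes 60.7%), and on the right 0 of 7, with an interval that overlaps those of the other distances.

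The largest ratio beside a region was that of Alox15, a lipoxygenase that oxidizes polyunsaturated fatty acids, at 0.160 and 49.1 RPKM (log2 ratio 5.43). Its region is 249 bp wide (chr11:70162752-70163000), inside the gene and 2533 bp from the start. Zfp575, a zinc finger gene, stood at 1.27 and 48.3 RPKM (4.44). Its region (chr7:25368920-25370508, 1589 bp) also lies within 5 kb of Ethe1, a mitochondrial sulfur dioxygenase, at 7.46 and 17.6 RPKM (1.14), so both genes beside this region were higher. Anxa2, a calcium-dependent membrane-binding protein, stood at 6.87 and 160.2 RPKM (4.36), with a 1771 bp region 4023 bp downstream of its start. The RNA of 4933409K07Rik, from 4.70 to 138.9 RPKM (4.62), is uncertain because the locus belongs to a repeated family whose reads can be split among copies.

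Further genes in that top group were low in wild type. Glrx, a glutaredoxin, stood at 0.635 and 21.7 RPKM (3.80), its region 4578 bp upstream. Plat, tissue plasminogen activator, stood at 0.393 and 17.6 RPKM (3.74), its region 3735 bp upstream. Parva, an actin-binding protein of focal adhesions, stood at 1.32 and 22.2 RPKM (3.32), its region 1133 bp inside the gene. In wild-type MEFs the lowest of the 12 genes were Alox15 and Mep1b, both listed at 0, and Nefm at 0.113 RPKM. The highest were Plat at 27.01 RPKM, Ly6a at 105.6 RPKM, Parva at 138.3 RPKM and Anxa2 at 852.8 RPKM. Nefm, a neurofilament subunit, stood at 0.451 and 13.2 RPKM (3.29), and Mep1b at 0.876 and 17.1 RPKM (3.27). Gm10845, a predicted gene on chromosome 14, stood at 3.52 and 41.5 RPKM (3.23). The lowest wild-type value among the 12 genes was that of Alox15 and the highest that of Anxa2, and in none of them did the knockout value fall below 10 RPKM.

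**Figure D5:**
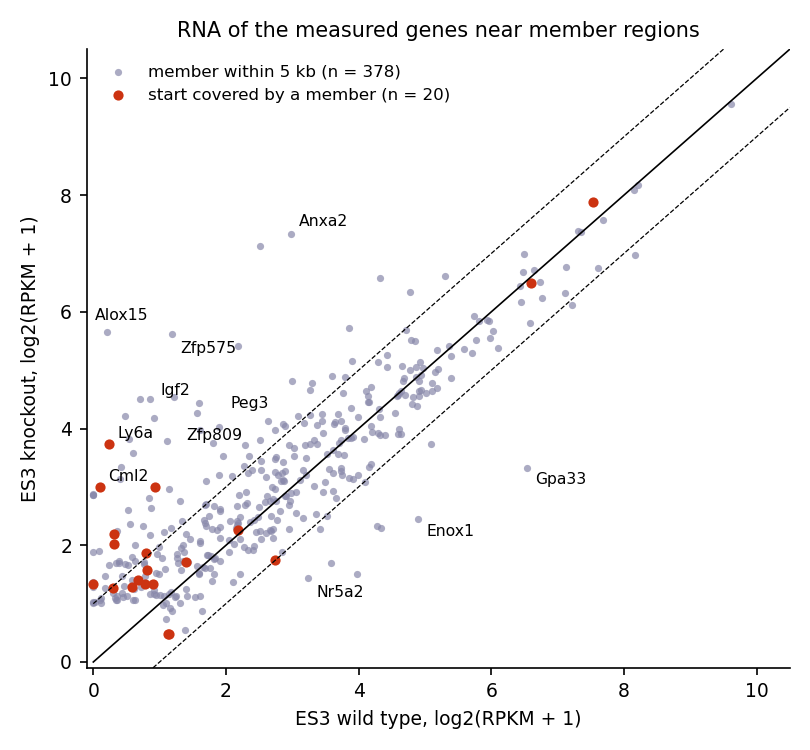
ES3 RNA of the 398 measured genes with a region within 5 kb, wild type (x) against knockout (y), both as log2(RPKM + 1); the solid line is equality and the dashed lines 2-fold. Most genes at covered starts (red) lie at low wild-type values, and the points above the upper dashed line (85) outnumber those below the lower one (13).

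Of the 13 lower genes, 6 lay on distal chromosome 1 and 2 on chromosome 14. On distal chromosome 1 these were 6 of 55 measured genes beside a region (10.9%, 5.10 to 21.8%). Among all measured genes there, 30 of 476 (6.30%) were lower, a share inside that interval. On chromosome 14 the counts were 2 of 15 beside a region and 10 of 409 of all measured genes. Gpa33, an intestinal cell-surface antigen, stood at 92.2 and 9.07 RPKM (-3.21), and its neighbour Dusp27, an atypical dual-specificity phosphatase, at 14.8 and 1.83 RPKM (-2.48). They share 1 region (chr1:168058210-168059440), which lies between their starts, 1108 bp upstream of Gpa33 and 181 bp upstream of Dusp27. Gli2, a Hedgehog pathway transcription factor, stood at 19.2 and 3.93 RPKM (-2.03), and Nr5a2, a nuclear receptor of the pluripotency network, at 8.48 and 1.71 RPKM (-1.81). Each lies on distal chromosome 1. On chromosome 14, Enox1, a cell-surface oxidase, stood at 28.8 and 4.45 RPKM (-2.45) and 1190002H23Rik (Rgcc in RefSeq), a cell-cycle regulator, at 11.0 and 2.23 RPKM (-1.89), although the median of all measured genes there was 0.59. On other chromosomes were Slc17a9, a vesicular nucleotide transporter (18.3 and 4.06 RPKM, -1.93), and Isoc2a (32.9 and 12.4 RPKM, -1.34). The remaining 5 were Parp1 and Casq1 on distal chromosome 1, 1190007I07Rik, Gm5424 and Dnajc21, with ratios of -1.19 to -1.005. The 2-fold rule can call a gene lower only where wild type stands at 1 RPKM or more.

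At covered starts the 7 higher genes were Ly6a, Cml2, 1700029P11Rik, Cd59a, Ly6c1, Cyp21a1 and Zfp629. Of the 20 measured, the 7 at 1 RPKM or more in wild type could have been called lower, and 0 of them were. Gm6792 came just short, at 5.71 and 2.36 RPKM (-0.998). NR_026896 (-0.66) and Mgat4e (-0.65) also fell, and they share 1 start and 1 region. Mir682 was at -0.09, while C330019L16Rik, Pilra and Rps27 were above 0. Ly6a, known as the stem cell antigen Sca-1, stood at 0.183 and 12.3 RPKM (3.49), and Ly6c1, a related surface protein, at 0.238 and 3.07 RPKM (1.72). In the deposited coordinates both share 1 start and 1 region of 429 bp (chr15:74878946-74879374), so this start is not an independent observation for each, and reads of near-identical Ly6 genes can be split. Cml2, an N-acetyltransferase family gene, stood at 0.0736 and 7.002 RPKM (2.90), with a region of 2723 bp (chr6:85818154-85820876). Its start and Gstp2 hold the 2 regions that touch the KAP1 list called over knockout.

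1700029P11Rik stood at 0.907 and 6.96 RPKM (2.06; chr15:81810095-81811656), and Cd59a, an inhibitor of the complement membrane attack complex, at 0.242 and 3.597 RPKM (1.89; chr2:103935650-103936874). The promoter runs of these genes hold 9 CGs and none, so a higher RNA occurred at CpG-poor and at CpG-richer starts. Cyp21a1, a steroid 21-hydroxylase gene, had a listed wild-type value of 0 and reached 1.54 RPKM. Zfp629 stood at 0.730 and 2.63 RPKM (1.07), a call that was lost with a pseudocount of 5 RPKM (0.41) or when centred on the median of all genes (0.99). The calls of Cml2, 1700029P11Rik, Cd59a, Ly6c1 and Cyp21a1 were not varied in this way. A larger pseudocount would lower their ratios. Of the 46 symbols with a covered start, 26 were not measured in either library. Among these was Dazl, an RNA-binding protein of germ cells, at 0.366 and 0.722 RPKM, with a region of 752 bp over its start (chr17:50432877-50433628). Mir682 and Rps27 were at the other end, at 95.4 and 89.4 RPKM and at 183.4 and 236.1 RPKM. The Rps27 entry at this start is a retrocopy, so its reads cannot be assigned with confidence, and short RNAs such as Mir682 are poorly measured by RPKM.

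Among imprinted genes, whose activity depends on the parent of origin, 6 of 40 in the table had a region within 5 kb (15.0%, 7.06 to 29.1%, against 4.05% of all symbols). Peg3 and Usp29, both among the 6, share a region and are not independent, although the interval treats them so. Igf2, a fetal growth factor, stood at 0.805 and 21.7 RPKM (3.65), with an 841 bp region 1035 bp upstream (chr7:149853756-149854596) and a KAP1 peak 1049 bp from that region. Peg3, a paternally expressed zinc finger gene, stood at 5.18 and 16.6 RPKM (1.51). Its 1919 bp region (chr7:6679846-6681764) lies 1368 bp inside the gene and 1530 bp upstream of Usp29, a deubiquitinase gene, which stayed under 0.2 RPKM in both. The nearest KAP1 peak is 70 bp from it, the shortest such distance among the 768 regions. Igf2r, the receptor that clears IGF2, had regions 327 bp upstream and 1196 bp downstream and stood at 27.7 and 44.5 RPKM (0.66), within 2-fold. Airn, the noncoding RNA antisense to Igf2r, had a region of 1504 bp with a KAP1 peak 703 bp away, and stood at 0.362 and 1.16 RPKM. Since the Igf2r and Airn loci overlap and no counting strand is given, their reads cannot be told apart. Kcnq1 and Slc22a3 had listed values of 0 and stayed under 0.2 RPKM. Of the 3 measured list members 2 were higher and none lower, beside 9 higher and 3 lower of 32 measured imprinted genes. Igf2, 1 of these 2, entered the measured set only through the knockout.

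Other regions close to a KAP1 peak went with varied RNA. Nefm, with a peak 293 bp away, was higher. Casq1, the calcium-storage protein calsequestrin, had one 468 bp away on distal chromosome 1 and stood at 10.4 and 4.64 RPKM (-1.02). Pno1, a ribosome assembly factor, had one at 469 bp and stood at 47.3 and 40.2 RPKM, within 2-fold. Casq1 and Pno1 were chosen from the 12 shortest distances after their values were seen.

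Zinc finger genes named Zfp had a region at 21 of 326 (6.44%, 4.25 to 9.65%), against 4.05% of all symbols. Zfp808 and Zfp934 share a deposited start and a region. The interval treats them as independent, and its lower limit lies close to the share of all symbols. The name is not limited to the KRAB proteins that dock TRIM28, and which of the 326 carry a KRAB domain was not checked. Of the 18 measured, 5 were higher (Zfp575, Zfp706, Zfp488, Zfp809 and Zfp629) and none lower, beside 18 higher and 4 lower of 274 measured Zfp genes. Zfp706 stood at 26.3 and 80.0 RPKM (1.57) and Zfp488 on chromosome 14 at 5.67 and 14.8 RPKM (1.25), a call lost with a pseudocount of 5 RPKM (0.89) or when centred within its chromosome (0.65). Zfp809, a KRAB protein that brings TRIM28 to retroviral primer binding sites, stood at 4.07 and 10.52 RPKM (1.18; 0.77 with a pseudocount of 5 RPKM), with a 767 bp region 1779 bp downstream of its start (chr9:22031994-22032760). On the list of the TRIM28 pathway and H3K9 methylation, 3 of 30 genes had a region (10.0%, 3.46 to 25.6%, an interval that includes the 4.05%). Besides Zfp809 these were Kdm4a, an H3K9 demethylase, at 24.0 and 24.1 RPKM, and Morc3, a silencing ATPase, at 29.1 and 24.0 RPKM, both within 2-fold.

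Germline genes silenced by promoter methylation had a region at 4 of 31 (12.9%, 5.13 to 28.9%), against 4.05% of all symbols. The 4 were Dazl, Rpl10l, Mael and Dnajb3. Mael and Dnajb3 both lie on distal chromosome 1, which held 162.5 regions per 1000 starts. These 2 genes were measured at a start near a region. Neither passed 2-fold. Mael, a piRNA pathway factor on distal chromosome 1, stood at 6.18 and 2.70 RPKM (-0.96), and Dnajb3, a testis chaperone whose start is covered, at 0.757 and 1.98 RPKM (0.76). Both crossed 2-fold with a pseudocount of 0.1 RPKM, at -1.17 and 1.28. The kept transcript of the entry named Rpl10l starts more than 5 kb from every region. Rpl10l is counted in the 4 of 31 but its RNA is left out of this. Arg2, an arginase of the list of genes active at the 2-cell stage, had a listed wild-type value of 0 and reached 2.68 RPKM (1.88; 0.62 with a pseudocount of 5 RPKM), and was the single gene of 17 on that list with a region. Nr5a2 was the single one of 27 pluripotency genes.

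Chemosensory receptor genes, active mainly in sensory neurons, were among the unmeasured neighbours. Of 175 olfactory receptor genes 16 had a region (9.14%, 5.71 to 14.3%), and of 65 vomeronasal receptor genes 6 (9.23%, 4.30 to 18.7%). None of these receptor genes with a region was measured in either library, beside 4 of all 175 and 3 of all 65. Olfr510, at 0 and 0.243 RPKM, had the highest knockout value of the 16 olfactory receptor genes. Of 36 protocadherin genes 7 had a region, but 6 of them share 1 deposited start and 1 region on chromosome 18, and all 7 stayed under 0.4 RPKM. Against 4.05% of all symbols, the counts on other lists were small nucleolar RNAs (0 of 83, 0 to 4.42%), histone genes (1 of 55, Hist4h4), Hox genes (1 of 38, Hoxb3), microRNAs (1 of 68, Mir682), interferon genes (1 of 26, Zbp1), p53 targets (0 of 19), endothelial (0 of 6), macrophage (0 of 5) and trophectoderm genes (0 of 6), and each interval of these lists includes that share. Fibroblast markers had 1 of 8 (Twist2) and housekeeping genes 1 of 14 (Ppia, 782.2 and 751.2 RPKM). Ribosomal protein genes had 5 of 91, with Rpl10l counted among the 5. Rpl39l, a testis-enriched paralogue, was the 1 of these that was higher, at 2.06 and 14.8 RPKM (2.37). Genes with RIKEN or predicted names had 85 of 1451 (5.86%). Of the 42 measured, 13 were higher and 3 lower, beside 88 higher and 20 lower of 782 measured genes with such names. Several of the 13 were under 1 RPKM in wild type and entered only through the knockout. These were 1700019G17Rik, 1700029P11Rik, 2310007B03Rik, Gm11487, Gm11756, Gm13040, Gm13043 and Gm13057. Gm13040, Gm13043 and Gm13057, which share 1 region 4968 to 4969 bp away, had listed wild-type values of 0 and reached 6.25 to 6.36 RPKM, and reads of these near-identical genes can be split.

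In MEFs, for which the series holds no H3K9me3 library, the same genes showed fewer higher calls. So did all measured genes, with 0.981% higher in MEFs against 12.5% in ES3 cells. Of the 714 symbols present there, 327 were measured. Of these 11 (3.36%, 1.89 to 5.92%) were higher, against 0.981% of all 10805 measured genes, and 9 (2.75%) were lower, against 4.84%. The median log2 ratio was -0.01 against 0.00 for all genes. By distance, 1 of 11 measured genes at covered starts was higher, 4 of 42 up to 1 kb away, 4 of 67 at 1 to 2 kb and 2 of 207 at 2 to 5 kb. Higher in both cell types were 6 of 296 genes measured in both (2.03%, 0.932 to 4.35%), beside 23 of all 9932 (0.232%): Enho, Ethe1, Gm1673, Ly6c1, Rpl39l and Twist2. Of these, Ly6c1 (0.238 RPKM in wild-type ES3 cells) and Twist2 entered the ES3 measured set only through the knockout. The overlap was not counted with a filter on wild type alone. Twist2, a mesenchymal transcription factor, was at 0 and 1.03 RPKM in ES3 cells (1.02, a call lost at 0.94 when centred on all genes and at 0.27 with a pseudocount of 5 RPKM) and at 54.0 and 128.7 RPKM in MEFs (1.24), and Rpl39l at 14.1 and 36.9 RPKM in MEFs (1.32). Lower in both were 0 of the 296, beside 11 of all 9932. Gstp1, a glutathione S-transferase with 3 regions, stood at 98.6 and 103.6 RPKM in ES3 cells but at 63.4 and 139.6 RPKM in MEFs (1.13). Its reads can be split with those of Gstp2, its near copy.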

How the data were processed

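RNA of ES3 cells and MEFs and chromatin of ES3 cells were measured in wild-type and Trim28-knockout cells, 1 library per condition, with RNA duplicates pooled before extraction per the labels' protocols; immunoprecipitations were done in duplicate or triplicate, with 1 list deposited. Bowtie and the genome build mm9 are named in the submitters' processing notes. The read counter, the region caller and their thresholds were not given in the sources used here. Deposited by the authors were RPKM values per RefSeq transcript, H3K9me3 regions as starts and ends without a score, and KAP1 peaks with a score per peak whose scale is not stated; the score was used only to split that list at its median. Column names of the ES table give WT and KO alone; ES3 is the one ES line labelled that way. H3K27ac, Rex1GFP and input libraries were not analysed here. No per-sample column was left unused (0).

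An overlap needed 1 bp, and distances run from the region's nearest edge to the deposited gene start. The deposited wild-type-only list was checked to be exactly the 19057 wild-type regions that overlap no knockout region. Where a symbol had several transcripts, that of highest mean RPKM represents it. Log2 ratios used a pseudocount of 1 RPKM and a filter of 1 RPKM in either library, with a 2-fold threshold and no test, since each group has 1 library. Wilson 95% intervals cover counting error only. The interval and call steps were tested on simulated data. Python 3.11.15, pandas 2.3.3, numpy 2.4.6, scipy 1.17.1 and matplotlib 3.10.9 were used. RefSeq tables of GRCm38.p6 gave names and promoter sequences only.

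The regions, the 23 gene lists, the thresholds and the alternatives were chosen with earlier results of these data known. Genes named were Trim28, the 12 highest and 8 lowest ES3 ratios, the 5 with most regions, those at the 5 widest regions, and up to 4 per list by absolute ratio; other genes, at covered starts, on shared regions, near KAP1 peaks, in small counts or called in MEFs, were named after their values were seen. The settings varied were the pseudocount (0.1 and 5 RPKM), the filter (none and 5 RPKM), centring, all transcript rows, a 3-fold threshold, windows of 1, 2 and 10 kb, distance from the region's centre, stricter KAP1 and knockout conditions and wider regions; added after seeing the data were leaving out chromosomes, centring within chromosomes and a filter on wild type alone.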

Additional observations from a re-analysis of the deposited data

Results flagged for a closer look

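For 3 genes with a region within 5 kb, the ES3 and MEF libraries were past 2-fold in opposite directions. Peg3 had a log2 ratio of 1.51 in ES3 cells and -1.45 in MEFs, with 12.1 RPKM before and 3.79 RPKM after deletion. Col2a1, the cartilage collagen chain, had 1.04 in ES3 cells and -1.03 in MEFs, with no value above 2 RPKM in either table. 1190007I07Rik had -1.14 in ES3 cells (9.65 and 3.84 RPKM) and 1.16 in MEFs (0.972 and 3.41 RPKM). With 1 library per condition, the difference between the cell types was not tested.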

How the results depend on the processing

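No paired analysis was possible because each condition has 1 library, and for the same reason no library could be left out. The number of regions was 149, 273 and 1746 with windows of 1, 2 and 10 kb and 469 among regions at or above the median width; the other settings kept it within 1.5 times of 768. In ES3 cells, the higher and lower counts were 85 and 13 and the median 0.26. A pseudocount of 5 RPKM gave 36 higher and a median of 0.16, a filter at 5 RPKM 55 higher, no filter a median of 0.12, and a 3-fold threshold 39 higher and 7 lower. Windows of 1, 2 and 10 kb gave 21, 40 and 167 higher and 2, 6 and 29 lower, with medians of 0.57 and 0.42 at 1 and 2 kb. Lower counts were 7 at wider regions, 7 outside chromosome 1 and 5 outside chromosomes 1, 14 and X. Genes at 1 RPKM or more in wild type gave 40 higher and a median of 0.044. In MEFs, the higher and lower counts were 11 and 9. Pseudocounts of 0.1 and 5 RPKM gave 33 and 1 lower, the latter with 4 higher, and a 3-fold threshold gave 1 higher and 0 lower. A window of 1 kb gave 5 higher, 0 lower and a median of 0.22, windows of 2 and 10 kb 4 and 31 lower, wider regions 7 higher and 4 lower, and a filter at 5 RPKM a median of 0.15. Shorter windows and stricter filters test fewer genes; the cause of the other shifts was not tested. The single genes named by rule were varied too. Of these, 5 lost a call (Zfp629, Zfp809, Arg2, Twist2 and Zfp488) and 2 gained one (Mael and Dnajb3) under an alternative pseudocount or centring. Genes named after their values were seen were not varied in this way. Cml2, 1700029P11Rik, Cd59a, Ly6c1, Cyp21a1, Ethe1 and Gm1673 are among them. No value past 2-fold changed sign, while several values near 0, such as that of Kdm4a, did so when centred. Read depth is unknown, so counting error of RPKM values cannot be given.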
